A study of Mus musculus with 48 samples.

Results

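Retnlb, Retnla, Ang4, Ang and Itln1 are 5 genes for small secreted defence proteins of the gut wall, and they were read out here as 5 of the 55401 gene rows of a colon RNA-sequencing table. The rows were found by Ensembl identifier through the symbols of GENCODE vM21. The members were selected on the measured difference between genotypes: Retnlb and Ang4 were known to be higher in Bmal1 IEC-/- mice, and the other members are relatives of them or share their cell of origin. The comparison of genotypes is therefore given as a description of the members and not as a test. Tests are given only for measures that this choice did not use: the course over circadian time and the relation between members from mouse to mouse.

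The colon of 48 mice was sequenced. Every 4 h from CT1 to CT21, a total of 6 circadian times (CT), 4 mice of either genotype (control and Bmal1 IEC-/-) were collected. All were adult male mice on a C57BL/6J background that carried floxed Bmal1 alleles, and tissue was taken on the second day in constant darkness. In Bmal1 IEC-/- mice 1 copy of Cre under the Villin promoter removes the clock gene Bmal1 (Arntl) from intestinal epithelial cells, whereas control littermates have the floxed alleles without Cre. Other cells of the colon keep the gene, and the RNA came from whole tissue. Values are given for 46 mice, 24 control and 22 Bmal1 IEC-/-. The labels do not name the mice that the study left out. The choice was taken from earlier work on these data and then checked by hand. For this check, size factors computed from the counts were matched to those carried by the values of the study's rhythm table for control mice. The mice left out are both Bmal1 IEC-/- at CT1 (SV384 and SV385), so that 2 mice remain in that group, and their values are given apart.

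Resistin-like molecules are cysteine-rich secreted proteins. Retnlb is made by goblet cells of the colon and acts on parasites and bacteria. It is switched on by microbial colonisation and by the type 2 cytokines interleukin 4 and interleukin 13. Retnla is made mainly by macrophages and other stromal cells under the same cytokines. Ang4 is an intestinal ribonuclease of the angiogenin family with antimicrobial activity, first known from Paneth cells and also made by goblet cells, and Ang is its widely expressed relative. Itln1 encodes intelectin 1, a lectin that binds sugars of microbial surfaces and is secreted by goblet and Paneth cells.

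Retnlb (ENSMUSG00000022650) lies on the plus strand of chromosome 16 (GRCm38, 48816856 to 48818892), and Retnla (ENSMUSG00000061100, 48842551 to 48844461) starts 23658 bases downstream of its end. Ang4 (ENSMUSG00000060615) is on the minus strand of chromosome 14 (51763878 to 51773590), 661868 bases from the end of Ang (ENSMUSG00000072115, 51091150 to 51102009, plus strand). Ang lies within the span of Rnase4 (51091077 to 51106151, plus strand), with which it shares its promoter region. Itln1 (ENSMUSG00000038209) is on the minus strand of chromosome 1 (171518122 to 171535294). All 5 are protein-coding.

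The 250 bases before the RefSeq start (GRCm38.p6) are shown for Ang4 and Itln1, which moved with Retnlb from mouse to mouse, and for Retnla, which did not. Capitals mark every match on either strand to an E-box (CACGTG, bound by BMAL1 and CLOCK), to the element AGGTCA of nuclear receptors such as REV-ERB, to the STAT6 motif (TTC and GAA with 4 bases between them) or to the STAT3 motif (the same with 3 bases between). The sequences run 5′ to 3′ on the strand of the gene.
Ang4, chr14:51773591-51773840, minus strand: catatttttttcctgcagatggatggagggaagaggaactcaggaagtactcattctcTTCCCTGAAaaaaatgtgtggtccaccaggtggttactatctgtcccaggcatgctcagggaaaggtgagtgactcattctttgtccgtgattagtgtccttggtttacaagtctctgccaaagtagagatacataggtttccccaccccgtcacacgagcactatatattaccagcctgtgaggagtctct
Itln1, chr1:171535295-171535544, minus strand: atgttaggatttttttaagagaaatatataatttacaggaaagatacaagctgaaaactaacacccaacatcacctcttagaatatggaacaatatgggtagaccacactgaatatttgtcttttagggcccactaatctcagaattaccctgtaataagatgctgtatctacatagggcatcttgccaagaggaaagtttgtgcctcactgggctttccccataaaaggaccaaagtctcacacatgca
Retnla, chr16:48842359-48842608, plus strand: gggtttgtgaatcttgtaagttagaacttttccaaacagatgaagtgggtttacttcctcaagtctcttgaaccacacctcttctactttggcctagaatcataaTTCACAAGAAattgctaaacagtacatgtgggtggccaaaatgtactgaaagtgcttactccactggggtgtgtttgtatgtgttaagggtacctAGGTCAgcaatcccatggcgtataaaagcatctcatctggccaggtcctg

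The Ang4 window held 1 match, the STAT3 motif TTCCCTGAA, and the Itln1 window held none. The Retnla window held the STAT6 motif TTCACAAGAA and, closer to the start, the element AGGTCA. No E-box was found in the windows of Ang4, Itln1, Retnla or Ang. Over 32851 RefSeq windows of the same length, 6.02% held the E-box, 14% the AGGTCA element, 5.85% the STAT6 motif and 7.02% the STAT3 motif, so each of these matches is a common one. The Ang window ends on the base before the annotated start of Rnase4.

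Retnlb was almost silent in control mice and well expressed in Bmal1 IEC-/- mice. In controls it ranged from 0 to 6.06 CPM (read counts scaled to a common library total), with a median of 1.77 and a mean of 1.91 ± 1.34 (SD, n = 24). These are 0 to 26 reads, and 7 of the 24 mice had no more than 3, the limit that a count of 0 allows. In Bmal1 IEC-/- mice it ranged from 5.95 to 172 CPM, with a median of 17.9 and a mean of 37.1 ± 43.6 (SD, n = 22). The ranges met only at their edges: 21 of 22 Bmal1 IEC-/- mice lay above every control. The log2 fold change was 4.19 (SE 0.41). In whole tissue, more cells of a type and more RNA per cell cannot be told apart.

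Within each circadian time the Retnlb values of the genotypes did not overlap, at 6 of 6 times. That holds for 0.104% of the 14475 genes tested, and since Retnlb was chosen for this contrast nothing is read from it. The largest mean was 51.0 ± 80.6 CPM (SD, n = 4) at CT17 and the smallest 15.5 ± 4.57 CPM (SD, n = 2) at CT1, but with SV384 and SV385 included CT1 had the largest, 74.3 ± 109 CPM (SD, n = 4). The spread at CT17 came from 1 mouse (SV416) at 172 CPM beside mice at 5.95, 9.71 and 16.7 CPM.

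Ang4 was detected in every mouse and was higher in Bmal1 IEC-/- mice, with overlap. Control values ran from 1.80 to 45.1 CPM, with a median of 7.10 and a mean of 10.5 ± 9.29 (SD, n = 24). Bmal1 IEC-/- values ran from 9.71 to 165 CPM, with a median of 27.0 and a mean of 51.0 ± 46.9 (SD, n = 22). The Bmal1 IEC-/- mean was the higher at 6 of 6 times, and the log2 fold change was 2.28 (SE 0.35). The groups were apart without overlap at 2 of 6 times, which 3.85% of the genes tested reached or exceeded, and 9 of 22 Bmal1 IEC-/- mice lay above every control.

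Itln1 was the least abundant member, at 1 to 10 reads per control mouse. Control mice had 0.235 to 2.80 CPM, with a median of 0.748, and Bmal1 IEC-/- mice had 0 to 14 CPM, with a median of 1.41. The means were 0.766 ± 0.493 (SD, n = 24) and 2.51 ± 3.26 CPM (SD, n = 22), and the log2 fold change was 1.58 (SE 0.35). Only 4 of 22 Bmal1 IEC-/- mice exceeded every control, and 17 of 24 control and 6 of 22 Bmal1 IEC-/- mice had no more than 3 reads.

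Retnla, the neighbour of Retnlb on chromosome 16, did not share its difference. Control mice ranged from 2.11 to 17.4 CPM (median 9.05, mean 9.75 ± 3.77, SD, n = 24) and Bmal1 IEC-/- mice from 2.41 to 20.5 CPM (median 6.88, mean 8.23 ± 4.12, SD, n = 22). The log2 fold change was -0.26 (SE 0.18) and the ranges overlapped nearly throughout. The largest difference was at CT1: the 2 Bmal1 IEC-/- mice had 2.41 and 4.70 CPM and the 4 controls 9.13 to 11.9 CPM, a log2 difference of -1.50 (SE 0.62) at that time. With so few mice, and with no share of all genes computed for CT1, nothing is read from it. The difference did not vary over circadian time in edgeR's test of the interaction (adjusted p = 0.884).

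Ang differed by a small amount at most times. It ranged from 31.9 to 54.3 CPM in control mice (median 44.3, mean 44.8 ± 5.09, SD, n = 24) and from 41.9 to 65.8 CPM in Bmal1 IEC-/- mice (median 57.4, mean 56.6 ± 6.00, SD, n = 22). The log2 fold change was 0.34 (SE 0.05). The genotypes did not overlap at 5 of 6 times, as for 0.235% of the genes tested, and CT9 was the exception, where the log2 difference was 0.08 (SE 0.11). Rnase4, a ribonuclease gene transcribed from the same promoter region, went from 362 ± 43.2 CPM (SD, n = 24) to 458 ± 49.4 CPM (SD, n = 22), a log2 fold change of 0.35 (SE 0.04, adjusted p = 6.67e-09 in edgeR's quasi-likelihood test). Exons of Ang and Rnase4 share a run of 116 bases, and reads on the features of both genes were not counted by the authors, so the counts of Ang come from the part that is its own.

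**Figure D1:**
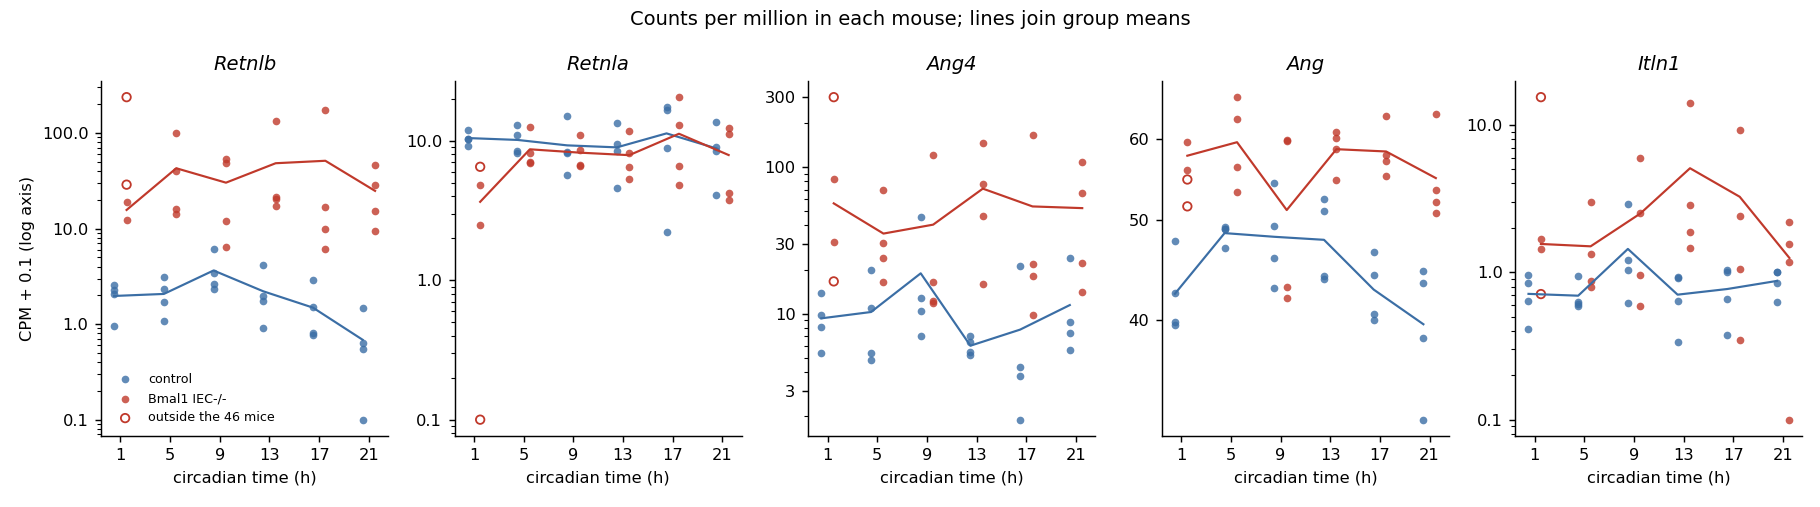
CPM plus 0.1 (log axis, own scale in each panel) of the 5 members in each mouse against circadian time in hours, control mice in blue and Bmal1 IEC-/- mice in red. Lines join the means of the 46 mice and open circles are the 2 mice outside them, with Retnlb apart at every time, Ang apart at 5 of 6 times and Retnla overlapping at every time but CT1.

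A gene was called when its adjusted p was under 0.05 and its fold change over 1.5. By this rule 3 of the 5 members (Retnlb, Ang4, Itln1) were called in the comparison that chose them, all higher in Bmal1 IEC-/- mice. In the same comparison 1.36% of the 14475 genes tested were called, and 0.670% were called as higher. Since this contrast chose the members, nothing is read from the counts. By the adjusted p alone it was 4 of 5 members, with Ang added, beside 11.1% of genes. The median log2 fold change over all genes tested was 0.00. Per exon length, the order in control mice was Ang (37.3 RPKM, CPM per kilobase of exon), Retnla (16.3), Ang4 (14.8), Retnlb (2.74) and Itln1 (0.671). In Bmal1 IEC-/- mice it was Ang4 (71.9), Retnlb (53.4), Ang (47.0), Retnla (13.7) and Itln1 (2.20). With SDs near the size of the means for Ang4 and Retnlb, these 2 neighbours and Ang are not apart beyond their spread in Bmal1 IEC-/- mice.

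Of the close relatives, several were at or near 0 reads. Of the other angiogenins Ang2 and Ang6 had no read in any of the 46 mice and Ang5 had 1 read in 1 mouse. Retnlg, a resistin-like gene of blood cells beside Retnla, had up to 8 reads per mouse (mean 0.673 CPM in control and 0.799 CPM in Bmal1 IEC-/- mice). Retn, the adipocyte hormone resistin, had 0 to 94 reads, with 6 mice of each genotype at 0. Rnase1, a secreted ribonuclease, had at most 6 reads. Rnh1, the inhibitor that binds angiogenins, was at 111 CPM in control and 110 CPM in Bmal1 IEC-/- mice, and Plxnb2, an angiogenin receptor, at 405 and 397 CPM. Of the 4 relatives with enough reads for the test (Retn, Rnase4, Rnh1 and Plxnb2), none was called at the fold change of 1.5 and Rnase4 passed the adjusted p alone. The same shares over all genes tested were 1.36% and 11.1%. The longest run that a member shared with a transcript of another gene was 26 bases for Retnlb (with Retnlg), 49 for Retnla (with Retnlg), 79 for Ang4 (with Ang5) and 60 for Itln1 (with Gm9765), and for Ang it was that with Rnase4 followed by 93 bases with Ang2.

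Whether the difference depended on the time of collection was tested next, which the choice of members did not use. The size of the Retnlb difference was lowest at CT9 (log2 3.04, SE 0.90) and highest at CT21 (5.31, SE 1.23), where control mice were lowest. For Ang4 it ran from 1.15 (SE 0.77) at CT9 to 3.55 (SE 0.88) at CT13, and for Itln1 from 0.61 (SE 0.91) at CT21 to 3.0 (SE 0.78) at CT13. Under edgeR's quasi-likelihood test of the interaction of genotype and circadian time (5 degrees of freedom), 0 of 5 members passed, 0 of them also at an unadjusted p under 0.05, and in DESeq2 0 of 4 tested. The adjusted p was 0.948 for Retnlb, 0.869 for Ang4, 0.835 for Itln1, 0.589 for Ang and 0.884 for Retnla, and 0.580% of all genes passed. Without a filter on low counts the same test called Retnlb (adjusted p = 6.59e-09) and Ang4 (adjusted p = 1.32e-25), so the outcome for these 2 genes depended on the filter.

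**Figure D2:**
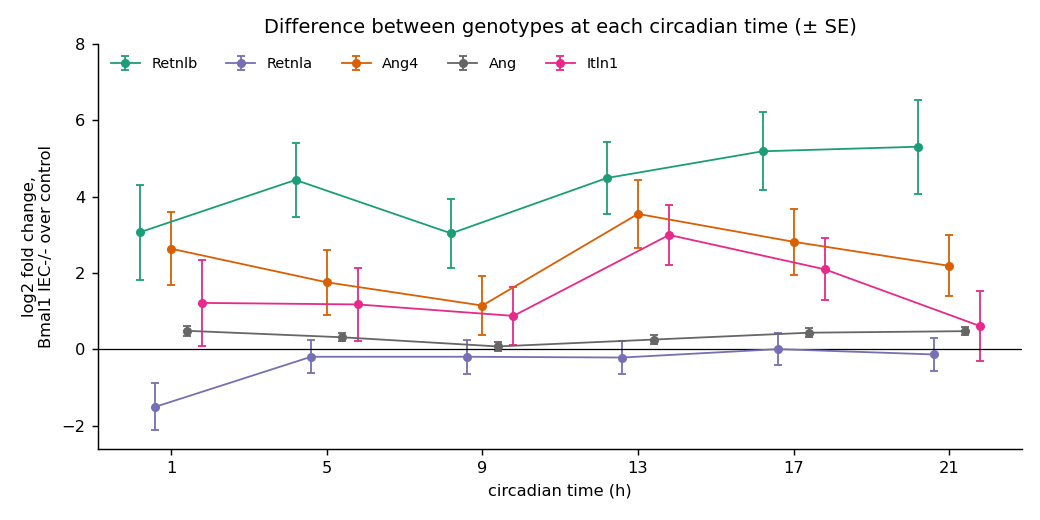
Log2 fold change of Bmal1 IEC-/- over control mice for each member at each circadian time in hours, with its SE from the edgeR fit that has a term for every genotype and time. Retnlb stays above 3 at every time, Ang keeps between 0.08 and 0.49, and the errors of neighbouring times overlap for most points.

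The log2 fold change of Bmal1 IEC-/- over control mice was estimated higher in the circadian night (CT13, CT17, CT21) than in the day (CT1, CT5, CT9) for each member. The shift was 1.23 (SE 0.92) for Retnlb, 1.08 (SE 0.67) for Ang4 and 1.05 (SE 0.75) for Itln1. For Retnla, which was lower in Bmal1 IEC-/- mice, the shift of 0.30 (SE 0.37) made the genotype difference smaller at night. None of the 5 passed the edgeR test of this interaction, and 0 had an unadjusted p under 0.05. Their adjusted p ran from 0.671 (Ang4) to 0.854 (Retnla), and DESeq2 passed 0 of 4 members tested. The size of these estimates rested on single mice: over all 48 mice, with SV384 and SV385 at CT1, they were 0.55 for Retnlb, 0.46 for Ang4 and 0.36 for Itln1, without SV416 the estimate for Retnlb was 0.76, without SV415 that for Ang4 was 0.71, and without SV395 that for Itln1 was 0.46. Over all genes, 0.0691% passed.

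In control mice Retnlb had a daily rhythm despite its low level. Its mean rose from 1.87 CPM at CT1 to 3.54 CPM at CT9 and fell to 0.586 CPM at CT21, and JTK_cycle placed the peak at 8 h (p = 0.00237 adjusted over phases, exact null). The time of collection held 51.7% of its spread on the log2(CPM + 1) scale. Such a share is not nil even without an effect of time, and no baseline was computed for it. A cosine fit in edgeR gave a peak at 8.63 h and an adjusted p of 0.00593, and called 2 of 5 members (Retnlb and Ang) beside 50.1% of the 14475 genes. Ang was rhythmic as well, with means between 39.5 CPM at CT21 and 48.5 CPM at CT5 and a peak at 10 h (JTK_cycle with exact null, p = 0.00559). Ang4, Itln1 and Retnla did not pass in control mice (exact p from 0.548 to 1). The count is thus 2 of 5 members, beside 24.1% of the 32471 genes with at least 1 read.

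In Bmal1 IEC-/- mice JTK_cycle called 0 of 5 members, beside 14.2% of all genes. For each member the p adjusted over phases was at its upper limit, which does not show that a rhythm is absent. The cosine fit in edgeR also called 0, beside 23.3% of the 14475 genes, with 1 member (Itln1) at an unadjusted p under 0.05 and an adjusted p of 0.0866. Circadian time held 6.61% of the spread of Retnlb there. A rhythm called in one genotype and not in the other is not a change of rhythm, for which edgeR tested whether the terms of a 24 h cosine curve differed by genotype. None of the 5 passed, beside 0.940% of genes. Ang came closest, with an adjusted p of 0.355 in edgeR, and was the sole member under 0.05 before adjustment, in DESeq2 too. The adjusted p of Retnlb in edgeR was 0.885.

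Retnlb, Ang4 and Itln1 differed widely between Bmal1 IEC-/- mice collected at the same time. The SD between mice of one time, on the log2(CPM + 1) scale, was 1.42 for Retnlb, 1.37 for Ang4 and 0.96 for Itln1. The median was 0.21 over 13356 genes with a mean of at least 10 reads in Bmal1 IEC-/- mice. Retnlb and Itln1 reach this minimum only through their reads in Bmal1 IEC-/- mice, so their place among the genes is not given. Of the genes, 0.442% varied more than Ang4. Ang varied less than most genes (SD 0.16, exceeded by 74.2%). In control mice the SD was 0.51 for Retnlb and 0.88 for Ang4, against a median of 0.20.

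Retnlb, Ang4 and Itln1 were high in the same Bmal1 IEC-/- mice. The mouse SV416 (CT17) had 172 CPM of Retnlb, 165 of Ang4 and 9.09 of Itln1. SV395 (CT13) had 134, 145 and 14 CPM, and SV402 (CT9) had 53.7, 121 and 5.84 CPM in the same order. These 3 mice were among the 5 highest of the 22 for each of the 3 genes. SV477 (CT5) was an exception, with 101 CPM of Retnlb beside 23.9 of Ang4 and 0.772 of Itln1.

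Over the 22 Bmal1 IEC-/- mice, with each value taken relative to the mean of its circadian time, Pearson's r was 0.74 for Retnlb and Ang4 (permutation p = 0.00144, adjusted over 20 pairs 0.00960, Spearman's rho 0.69 with permutation p = 0.00248). For Retnlb and Itln1 r was 0.82 (permutation p = 0.00103, adjusted 0.00960, rho 0.80 with permutation p = 5.30e-04). Ang4 and Itln1 had r = 0.80 (permutation p = 4.90e-04, adjusted 0.00960, rho 0.67 with permutation p = 0.00556). Without the 2 mice farthest from the median these r were 0.61, 0.69 and 0.68. Without SV416 the pair of Retnlb and Ang4 no longer passed (r = 0.63, permutation p adjusted 0.117), while the other pairs passed whichever single mouse was omitted. The values share library, depth and tissue piece.

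The other 7 pairs in Bmal1 IEC-/- mice, all with Retnla or Ang, had r between -0.32 and 0.28, and no adjusted permutation p passed. Retnla, though next to Retnlb, had r = -0.26 with it (permutation p = 0.395, adjusted 0.718). In the 24 control mice 0 of 10 pairs passed and 0 had an unadjusted permutation p under 0.05. There r was 0.15 for Retnlb and Ang4 (permutation p = 0.536), 0.25 for Ang4 and Itln1 (permutation p = 0.368) and -0.43 for Retnlb and Itln1 (permutation p = 0.0743). Read counts of Retnlb and Itln1 near 0 limit what control mice can show, and the difference in r between genotypes was not tested. Without 1 control mouse (SV401) the pair of Ang4 and Ang passed (r = 0.54, permutation p adjusted 0.0455).

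**Figure D3:**
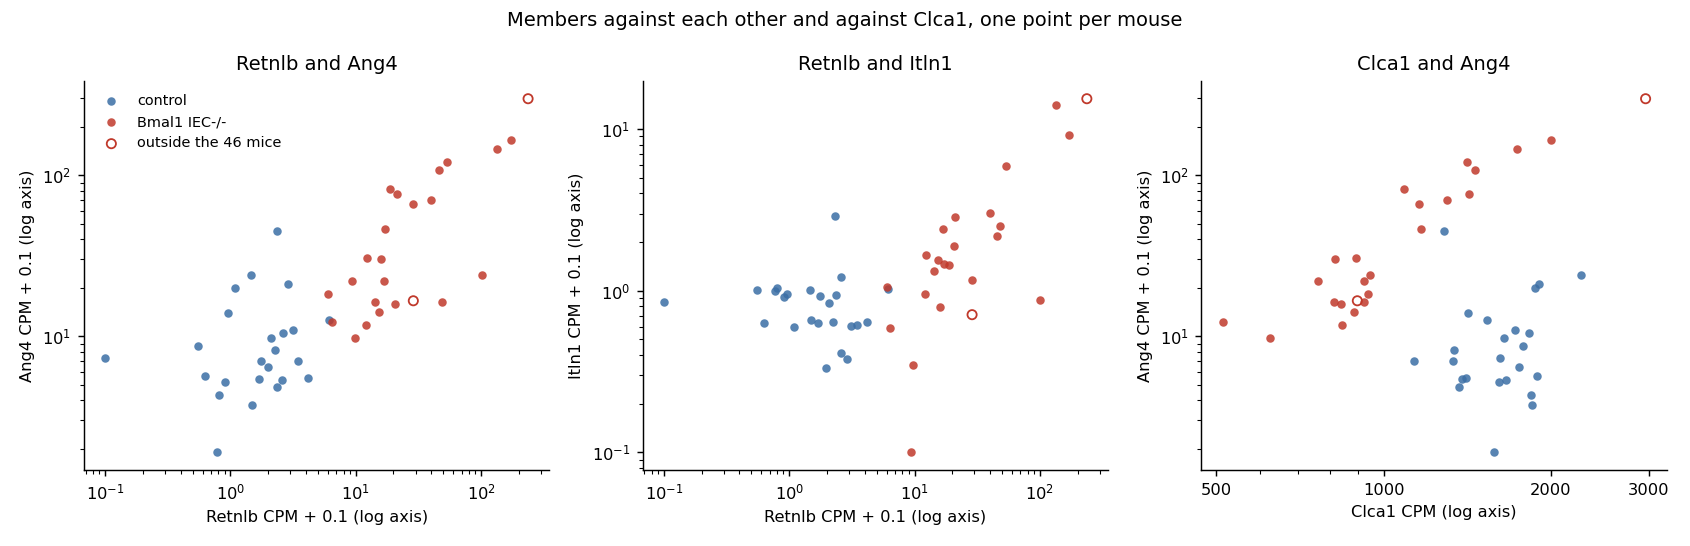
Retnlb against Ang4, Retnlb against Itln1 and Clca1 against Ang4, in CPM on log axes (with 0.1 added to the members), 1 point per mouse, control mice in blue, Bmal1 IEC-/- mice in red and open circles for the 2 mice outside the 46. In Bmal1 IEC-/- mice the genes rise together over mice, up to SV385 at 237 CPM of Retnlb and 298 CPM of Ang4.

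The genes most like the members over these 22 mice were looked for among the 13356 genes, as a description without a test. Retnlb and Itln1 are among these genes only through their reads in Bmal1 IEC-/- mice, so nothing is read from their own places. Clca1, a secreted goblet cell protein that shapes mucus, led for Ang4 (r = 0.92) and for Itln1 (r = 0.87) and was among the first 5 for Retnlb (r = 0.78). Its level went the other way between genotypes, from 1627 ± 260 CPM (SD, n = 24) in control to 1067 ± 363 CPM (SD, n = 22) in Bmal1 IEC-/- mice (log2 fold change -0.62, SE 0.10, adjusted p = 9.82e-06 in edgeR's quasi-likelihood test). Over all 48 mice, with SV385 at 2964 CPM, it was -0.51 (adjusted p = 0.00380 in edgeR), short of the fold change of 1.5, so that Clca1 was no longer called. In SV416, SV395 and SV402 Clca1 stood at 2002, 1736 and 1415 CPM, inside the range of control mice for Clca1 and above all of them for Ang4. In control mice r of Clca1 was 0.34 with Ang4, -0.19 with Itln1 and 0.18 with Retnlb.

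For Retnlb the first 5 genes were Tmc8 (r = 0.85), a transmembrane channel-like protein, Itln1 (0.82), Pm20d1 (0.82), a secreted enzyme of N-acyl amino acids, Ndufaf8 (0.81), an assembly factor of the respiratory chain, and Clca1. For Ang4, Clca1 and Itln1 (0.80) were followed by Pou2af1 (0.78), a coactivator of B cells, Igkv4-80 (0.77), an antibody light chain segment, and Rgs4 (0.76), a regulator of G proteins. For Itln1, Clca1 was followed by Skap2 (0.83), an adaptor of blood cells, Retnlb (0.82), Myl4 (0.82), a myosin light chain, and Ang4 (0.80). Of the genes in these 3 groups of 5 that are no members, Clca1 and Tmc8 (19.7 ± 4.78 CPM in control and 17.2 ± 3.69 CPM in Bmal1 IEC-/- mice, log2 fold change -0.22, SE 0.07, adjusted p = 0.0332 in edgeR) had an adjusted p under 0.05 between genotypes.

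Among the lists with at least 5 genes, 2 had high r with all 3 members. The 7 tuft cell genes, markers of chemosensory cells that start type 2 responses, had a median r of 0.59 with Retnlb, 0.53 with Ang4 and 0.67 with Itln1, where the median over all genes was 0.01. Trpm5, their cation channel, and Sh2d6 both had r = 0.76 with Retnlb and 0.76 with Itln1, and Ptgs1 had the lowest (0.08 with Retnlb). Of the 11 genes listed as type 2 induced epithelial genes, the 5 with enough reads had medians of 0.57, 0.55 and 0.59. Sprr2a1, Sprr2a2 and Sprr2a3 are among these 5 and belong to one gene family, so they are not independent values. Sprr2a2 (0.71 with Retnlb) was the highest and Ido1 (0.19 with Retnlb, -0.11 with Ang4, -0.06 with Itln1) the lowest of the 5. Without the 2 mice farthest from the median, the medians for tuft cell genes were 0.47, 0.30 and 0.58, and in control mice they were 0.30, 0.34 and 0.09. For the type 2 induced genes the same values were 0.37, 0.48 and 0.30 without these mice and 0.60, 0.08 and -0.18 in control mice, so the median with Retnlb was no lower in controls. Both lists were singled out by these values, which are a description over mice that share library and depth, with no test.

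**Figure D4:**
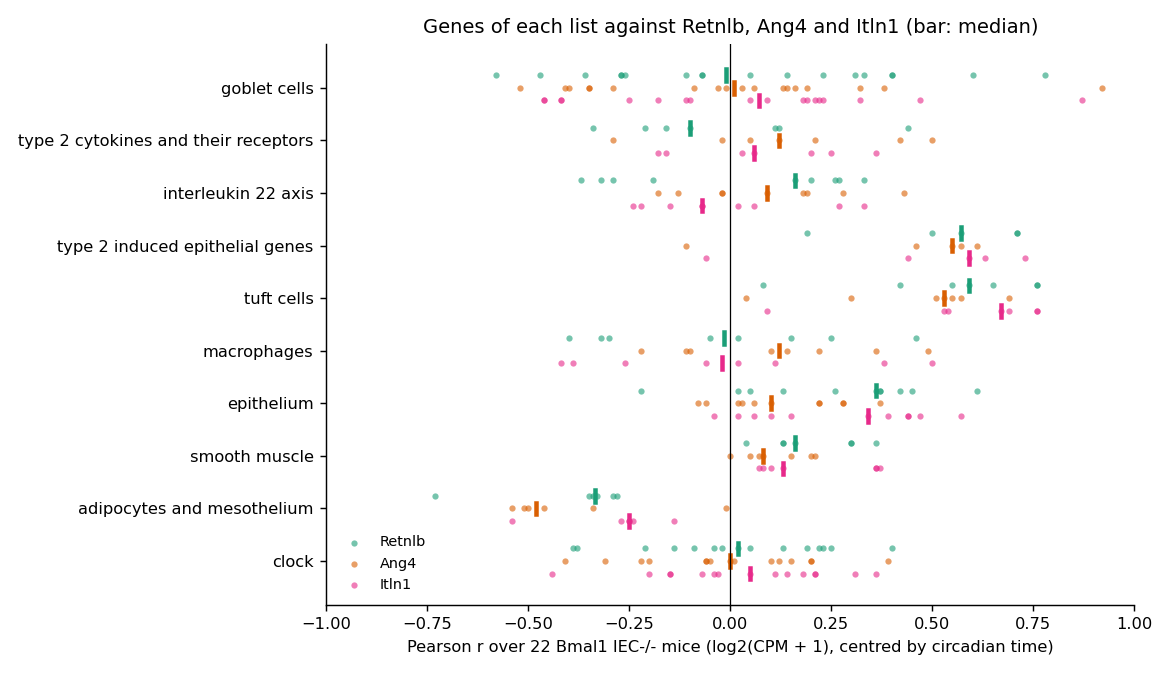
Pearson r of each listed gene with Retnlb (green), Ang4 (orange) and Itln1 (pink) over the 22 Bmal1 IEC-/- mice, on log2(CPM + 1) centred by circadian time, for the 10 lists with at least 5 genes, bars marking medians. Most tuft cell genes and type 2 induced genes lie to the right for all 3 members. Ido1 lies left of 0 with Ang4 (-0.11) and with Itln1 (-0.06). Goblet cell genes spread on both sides of 0 with Clca1 alone at the far right.

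Goblet cell genes had no common direction with the members. Over the 18 genes of the list the median r was -0.01 with Retnlb, 0.01 with Ang4 and 0.07 with Itln1, and Spdef, a transcription factor of goblet cells, had r = -0.58 with Retnlb. Between genotypes 18 of 18 goblet genes were tested, 1 was called higher and 1 lower (the latter Clca1), with a median log2 fold change of 0.01. By the adjusted p alone 10 of the 18 differed, 5 higher (among them Spink4, log2 fold change 0.33, SE 0.05) and 5 lower (among them Klk1, -0.22, SE 0.04). The shares over all genes tested were 1.36% called and 11.1% by the adjusted p alone. The one called higher was Zg16, a lectin that keeps bacteria from the mucosa, with 1062 ± 219 CPM in control (SD, n = 24) and 1752 ± 333 CPM in Bmal1 IEC-/- mice (SD, n = 22), a log2 fold change of 0.71 (SE 0.08, adjusted p = 8.85e-10 in edgeR). Muc2, the main mucin, was at 15776 and 14469 CPM (log2 fold change -0.13, SE 0.08, adjusted p = 0.341 in edgeR). The summed level of the list ran from 20767 to 31787 CPM in control and from 20126 to 32416 CPM in Bmal1 IEC-/- mice.

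Most cytokines of the type 2 and interleukin 22 lists had few reads or none. Il13 had 1 read in 1 of the 46 mice, Il5 at most 2 reads per mouse, Il25 at most 3, Il4 at most 12 and Il22 at most 4, and Il9 was at 0 in all. Il33 was detected, at 10.5 ± 2.47 CPM in control and 9.18 ± 2.74 CPM in Bmal1 IEC-/- mice (SD, adjusted p = 0.195 in edgeR's quasi-likelihood test). Of the 8 genes of type 2 cytokines and receptors that could be tested, among them Il4ra, Il13ra1 and Stat6, 0 were called and 0 had an adjusted p under 0.05. Of the 9 genes of the interleukin 22 axis tested, 0 were called, and Fut2 and Il18 had an adjusted p under 0.05 alone. Beside these lists, 1.36% of all genes tested were called and 11.1% had an adjusted p under 0.05. Reg3b, an antimicrobial lectin of that axis, was at 809 ± 489 CPM in control (SD, n = 24) and 809 ± 712 CPM in Bmal1 IEC-/- mice (SD, n = 22).

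Markers of cells that could carry the members gave these values, and their part in the differences was not tested. Of the 10 deep crypt secretory and Paneth cell genes 3 could be tested and 0 were called, and the 5 alpha-defensins had at most 8 reads in any mouse, so that defining Paneth markers were near 0. No gene was called among the 8 tuft cell, 8 macrophage, 11 epithelial and 7 smooth muscle genes tested, nor among the 8 of adipocytes and mesothelium, 4 of T cells, 4 of B and plasma cells, 3 distal Hox genes and 1 of eosinophils and mast cells. Of all genes tested 1.36% were called and 11.1% had an adjusted p under 0.05. Lists this short can therefore hold no call whether or not a cell type changed. By the adjusted p alone 5 epithelial genes were higher, among them Lgals4 (log2 fold change 0.16, SE 0.03) and Cdx2 (0.26, SE 0.05), and Epcam was lower (-0.10, SE 0.03). Myh11 and Cnn1 of smooth muscle and 1 tuft cell gene were lower by the same measure. The summed tuft cell level ran from 104 to 184 CPM in control and from 113 to 189 CPM in Bmal1 IEC-/- mice, and that of the epithelium from 8447 to 11926 CPM and from 9919 to 12967 CPM. Smooth muscle ran from 3971 to 6162 CPM and from 3450 to 5943 CPM, and macrophage genes, beside Retnla, from 131 to 183 CPM and from 99.3 to 190 CPM.

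Of the 2 mice outside the 46, SV385 stood highest in Retnlb, Ang4 and Itln1 and SV384 lay among the others. SV385 had the highest Retnlb (237 CPM, 899 reads), Ang4 (298 CPM) and Itln1 (15.3 CPM) of all 24 Bmal1 IEC-/- mice, and no read of Retnla. Its smooth muscle genes summed to 862 CPM, below the 3450 to 5943 CPM of the 22 mice, its macrophage genes to 47.8 CPM (99.3 to 190), and its epithelial genes to 14374 CPM (9919 to 12967). Tuft cell genes summed to 100 CPM in SV385 and 112 CPM in SV384, below the 113 to 189 CPM of the 22 mice. SV384 had 28.7 CPM of Retnlb, 16.5 of Ang4 and 0.611 of Itln1. Over all 48 mice the log2 fold changes of Retnlb, Ang4 and Itln1 were 4.54, 2.48 and 1.86.

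Depth and labels were checked once for the whole table. Total counts per mouse ran from 3144997 to 4785844, and floors and SDs cover counting error and the spread between these mice. In control mice Arntl, the deleted gene, swung between 6.90 ± 2.27 CPM at CT9 and 67.9 ± 4.44 CPM at CT1 (SD, n = 4), whereas in Bmal1 IEC-/- mice it stayed between 29.8 and 45.0 CPM, means of each time. Reads outside the deleted part and from cells without Cre count for Arntl, so its level does not measure the deletion. Nr1d1, a direct target, had peak means of 146 ± 33.0 CPM in control (CT9) and 48.9 ± 11.9 CPM in Bmal1 IEC-/- mice (CT5, SD, n = 4 each). Of the 15 clock genes 3 were called higher and 6 lower, with Npas2 (log2 fold change 1.39) and Nr1d2 (-1.74) among them, beside 1.36% of all genes.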

How the data were processed

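The authors made stranded mRNA libraries from the colon of 48 mice. Per the labels and the study's methods, FastQC 0.11.5, Trimmomatic 0.39, STAR 2.7.5c (mm10), SAMtools 1.3.1 and featureCounts 1.4.6 were used, reads on several features were not counted, and DESeq2 1.22.0 was fitted. What was deposited is a table of raw counts, reads assigned by the authors to each gene and not normalized. The annotation release and the strand setting of the counting are not given in the sources used here. Totals were 3144997 to 4785844 counts per mouse, and a count of 0 allows up to 3 counts.

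From these counts, symbols and positions were taken from GENCODE vM21 (55141 of 55401 identifiers matched) and promoter windows from RefSeq (GRCm38.p6, 4 of the 5 members). The main set held 46 mice, without SV384 and SV385. Genes kept by filterByExpr (14475) were fitted with edgeR 4.0.16 (TMM scaling, quasi-likelihood test, p adjusted by Benjamini-Hochberg) in models of genotype and circadian time, of their interaction, of genotype and period, and of genotype and a 24 h cosine. Calls needed an adjusted p under 0.05 and, for genotype, a fold change over 1.5. Rhythm was tested with an own implementation of JTK_cycle on counts divided by DESeq2 size factors. Pairs of members were related by Pearson's r on log2(CPM + 1) centred by circadian time, with 100000 two-sided permutations within times. On simulated data with the real means and spread, 99.5% of 200 changed genes of 14475 were recovered by the genotype test. It was 99.0% by the interaction with time, 96.0% by that with period and 99.0% by the change of rhythm. The planted changes were large and lay only in genes above a minimum of reads. Retnlb and Itln1 were near 0 in control mice, and Retnlb and Ang4 varied widely between mice. These shares are therefore not the power of the tests for the members. R 4.3.3, DESeq2 1.42.0, Python 3.11.15, numpy 2.4.6, pandas 2.3.3 and matplotlib 3.10.9 were used.

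The members, gene lists, tests and alternatives were chosen with earlier results of these data known. Genes were named by this rule: the members and their relatives, for Retnlb, Ang4 and Itln1 each the 5 genes with the highest r over Bmal1 IEC-/- mice, in each list up to 3 called genes by smallest adjusted p, and Arntl and Nr1d1. Other genes were named after their values were seen. The 16 lists were relatives, goblet cells, deep crypt secretory and Paneth cells, type 2 cytokines, the interleukin 22 axis, type 2 induced genes, tuft cells, macrophages, eosinophils and mast cells, epithelium, smooth muscle, adipocytes and mesothelium, T cells, B and plasma cells, distal Hox genes and the clock. Alternatives were all 48 mice, each mouse left out, DESeq2 normalization and test, no filter, glmTreat, other rhythm tests and scalings, Spearman's rho, no centring and a pseudocount of 0.25. No label or text gives a batch. The p-values measure the spread between these mice.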

Additional observations from a re-analysis of the deposited data

Results flagged for a closer look

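In 10 of 55 groups of 4 mice (18.2%) a member's highest or lowest mouse stood apart from the other 3. The cut-off flags about 1 in 20 groups of independent, normally distributed values. CPM is skewed here and the members share mice, so these shares are not compared. For Retnlb in Bmal1 IEC-/- mice, SV395 had 134 CPM at CT13 beside 17 to 21.1 CPM, and SV416 had 172 CPM at CT17 beside 5.95 to 16.7 CPM. For Ang4 in the same genotype, SV402 had 121 CPM at CT9 beside 11.7 to 16.3 CPM, and SV416 had 165 CPM at CT17 beside 9.71 to 21.8 CPM. SV395 also stood apart in Itln1 at CT13, with 14 CPM beside 1.36 to 2.76 CPM. In control mice Ang4 had such a mouse at CT9 (45.1 CPM in SV415, the others up to 12.6), at CT17 (21.1 CPM in SV417, the others up to 4.23) and at CT21 (24.0 CPM in SV433, the others up to 8.63). At CT5 the control mouse SV446 was lowest in Ang (46.9 CPM beside 48.9 to 49.2) and highest in Itln1 (0.842 CPM beside 0.493 to 0.532), a matter of a few reads.

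Of the 2 Bmal1 IEC-/- mice outside the comparisons, SV385 lay above every control mouse in 3 members. It had 237 CPM of Retnlb, 298 CPM of Ang4 and 15.3 CPM of Itln1, where the highest control values were 6.06, 45.1 and 2.80 CPM. SV384 exceeded every control mouse in Retnlb alone of these 3 genes, with 28.7 CPM.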

How the results depend on the processing

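Of 645 values recomputed, most of them with a mouse left out, 641 kept their call and 0 changed sign. A count was taken as kept when it stayed within 1.5-fold of its main value, and counts have no sign. The pairs that passed in Bmal1 IEC-/- mice were thus taken as kept though they ran from 2 to 3. Values of the genotype comparison among the 645 repeat the contrast that chose the members. Without a filter on low counts 2 of 5 members (Retnlb and Ang4) passed the interaction of genotype and circadian time, and the cause was not tested. With each mouse left out, the count of pairs that passed in control mice ran from 0 to 1. Against a fold change of 1.5 (glmTreat) Itln1 had an adjusted p of 0.172, and without SV416 Retnlb and Ang4 had r = 0.63 with a permutation p adjusted of 0.117. Over all genes, counts of calls moved more than the members: by genotype from 197 to 51 (glmTreat) and 319 (no filter), by time from 84 to 574 (48 mice), 803 (no filter) and 195 (DESeq2), by period from 10 to 18 (48 mice, and also DESeq2), by change of rhythm from 136 to 278 (48 mice), and for rhythm with adjustment across genes from 7810 to 5026 in control and from 4597 to 1396 in Bmal1 IEC-/- mice. Leaving out a mouse moved the log2 fold change of Retnlb between 3.88 and 4.35, of Ang4 between 2.06 and 2.48 and of Itln1 between 1.28 and 1.73. Recomputing the gene lists, chosen after seeing the data, gave 10 to 17 genes called beside 12, and over all 48 mice Clca1 was not among them (log2 fold change -0.51). Depth limits Retnlb and Itln1 in control mice, where 7 and 17 of 24 mice had no more than 3 reads. No paired analysis was possible because every mouse has its own number.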

Other observations

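Adipocyte and mesothelium genes ran against the members over the 22 Bmal1 IEC-/- mice, with a median r of -0.34 with Retnlb, -0.48 with Ang4 and -0.25 with Itln1 over 6 genes, and the 11 epithelial genes had 0.36, 0.10 and 0.34. Igha and Jchain, antibody genes of plasma cells, had r of 0.38 and 0.35 with Retnlb and 0.52 and 0.50 with Ang4. The summed level of the adipocyte and mesothelium genes ran from 23.9 to 314 CPM in these mice. The part of the tissue piece in these values was not tested.

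Ido1, an enzyme of tryptophan breakdown and the 1 gene called between genotypes of the 5 type 2 induced epithelial genes tested, was lower in Bmal1 IEC-/- mice (7.73 ± 3.93 CPM in control and 3.81 ± 2.83 CPM in Bmal1 IEC-/- mice, SD, n = 24 and 22, log2 fold change -1.02, SE 0.22, adjusted p = 8.92e-04 in edgeR). Sprr2a2 of the same list, with 37.6 ± 12.4 and 29.8 ± 11.5 CPM, had no call, though it had r = 0.71 with Retnlb. Calls were made for 1.36% of all genes tested. In the control mouse with the most Ang4 (SV415, 45.1 CPM) Itln1 was also the highest of the controls (2.80 CPM), while Retnlb was at 2.24 CPM.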
